A study of Mus musculus with 8 samples.

Results

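The fibroblast growth factor (FGF) signalling and feedback genes described here are 10 mouse genes: the ligand Fgf4, the receptors Fgfr1 and Fgfr2, the feedback inhibitors Spry2, Spry4, Spred1, Dusp4 and Dusp6, and the transcription factors Etv4 and Etv5. They were chosen by their place in the FGF4 to ERK pathway and by their counts with and without dTAG-13 in each line, so the differences between treatments are given as descriptions without a test. All 10 were among the 55291 genes of the count tables and passed the filter on low counts that left 16371 genes for testing.

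RNA was sequenced from mouse embryonic stem (ES) cells of 2 edited lines. In one line the helicase DHX35 carried the FKBP12 F36V degron, a tag that dTAG-13 couples to the protein degradation machinery, and in the other line the G-patch protein GPATCH1, a partner of DHX35 on the spliceosome, carried it. Cells of each line were kept for 4 h in either the solvent DMSO or 200 nM dTAG-13, which makes 4 groups of 2 libraries (DHX35-dTAG DMSO, DHX35-dTAG dTAG-13, GPATCH1-dTAG DMSO, GPATCH1-dTAG dTAG-13). No untagged line was analysed here, and the lines were grown from single picked colonies. The labels do not name the clone behind a library, and nothing states that the 2 libraries of a group came from separate cultures, so the p-values measure only the spread between these libraries, which may be technical. The labels call the cells E14, while the growth protocol attached to them describes R1 cells, noted as those of a CUT&RUN experiment, kept in serum with LIF, CHIR99021 and PD0325901. PD0325901 inhibits MEK, the kinase directly above ERK in this pathway. Whether it was present in the cultures of these libraries is not stated, and its part in the levels was not tested.

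FGF4 is the main FGF that ES cells secrete. It binds FGFR1 and FGFR2 together with heparan sulphate, the receptors pass the signal through the adaptors FRS2, GRB2 and SOS to RAS, RAF, MEK and ERK, and ERK activity moves ES cells out of naive pluripotency. The output of the pathway is commonly read from its feedback genes, since ERK induces Sprouty and Spred proteins, which act against RAS and RAF activation, dual specificity phosphatases, which remove the activating phosphates from ERK, and the ETS transcription factors ETV4 and ETV5.

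For promoters, RefSeq sequences (GRCm38.p6) were matched for 6 of the 10 genes, namely Fgf4, Fgfr2, Spry2, Spred1, Dusp6 and Etv5. The 250 bases before each start were searched for CGGAA and for TTCCG, its form on the other strand. CGGAA is the core GGAA that ETS factors bind, with a C before it. A window without CGGAA can still hold GGAA, as that of Spry2 does. The motif was picked after the values were seen. Of 32851 promoter windows of this length, 8275 (25.2%) held it. Dusp6 held 3 copies, Spred1 held 1, and the windows of Fgf4, Fgfr2, Spry2 and Etv5 held none, which says only that these letters are not in these windows. A copy of the motif is a description and not a binding site. The windows of Dusp6 (chr10:99262981-99263230, plus strand) and Spred1 (chr2:117120821-117121070, plus strand) are shown because they held the motif, and that of Spry2 (chr14:105896820-105897069, minus strand) as a feedback gene without it. Each reads 5′ to 3′ towards the start and capitals mark the motif.
Dusp6: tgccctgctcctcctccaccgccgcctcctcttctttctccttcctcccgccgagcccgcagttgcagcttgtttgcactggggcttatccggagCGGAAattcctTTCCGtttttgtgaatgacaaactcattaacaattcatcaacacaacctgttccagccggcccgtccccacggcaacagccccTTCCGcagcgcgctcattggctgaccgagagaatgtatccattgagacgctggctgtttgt
Spred1: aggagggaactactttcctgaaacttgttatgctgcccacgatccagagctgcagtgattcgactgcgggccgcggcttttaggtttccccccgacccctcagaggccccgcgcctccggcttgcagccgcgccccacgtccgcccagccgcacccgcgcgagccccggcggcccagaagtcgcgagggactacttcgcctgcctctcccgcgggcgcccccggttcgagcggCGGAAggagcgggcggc
Spry2: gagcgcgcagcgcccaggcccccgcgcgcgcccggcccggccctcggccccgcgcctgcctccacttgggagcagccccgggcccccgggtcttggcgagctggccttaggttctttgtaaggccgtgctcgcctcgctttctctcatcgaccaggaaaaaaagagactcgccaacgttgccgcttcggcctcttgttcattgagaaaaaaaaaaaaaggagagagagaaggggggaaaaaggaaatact
The first bases of the 3 copies of Dusp6 lay 155, 144 and 61 bases before the start, and that of the copy of Spred1 lay 17 bases before it.

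Total counts ranged from 12014203 to 14994173 per library, and the 10 genes together took from 13179 to 20028 counts. Gm23935 and CT010467.1, which had the highest counts, together took between 1.27% and 20.9% of a library, with 3.15% and 1.54% in DHX35-dTAG DMSO, 12% and 20.2% in DHX35-dTAG dTAG-13, 4.23% and 20.9% in GPATCH1-dTAG DMSO, and 1.27% and 2.02% in GPATCH1-dTAG dTAG-13. Levels are therefore given as CPM (counts as a share of the library total after TMM scaling), which sets the typical gene equal between libraries. With library totals alone, the median log2 difference of all genes moved to -0.25 on DHX35 depletion and to 0.17 on GPATCH1 depletion, and the TMM-scaled differences are relative to that shift. Replicate 1 of DHX35-dTAG DMSO stood apart from the rest, with a mean correlation of 0.976 with the other libraries against 0.988 to 0.99 for them. Among the 10 genes, this library had the highest level of the 8 for Fgf4, Fgfr1, Dusp4 and Dusp6 and the lowest for Spry2 and Etv5, so differences that use it were also computed without it. The degron acts on the protein, and the loss of DHX35 or GPATCH1 protein was not measured in these counts. ES cell markers added up to between 4680 and 4960 CPM in every library (Pou5f1, Sox2, Nanog, Klf4, Zfp42, Esrrb and Tfcp2l1). Formative markers added up to between 228 and 261 CPM, nearly all of it Dnmt3b, and Fgf5 had 2 to 6 counts. The 6 primitive endoderm markers summed to between 6.43 and 8.29 CPM in the DHX35-dTAG libraries and between 8.41 and 9.87 in the GPATCH1-dTAG libraries, with 2 of the 6 separated by line, and the 5 fibroblast markers to between 2.56 and 5.76 CPM with Lum at 0 in all 8 libraries. Fewer cells of a type and less RNA per cell cannot be told apart in such bulk samples.

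Levels of the 10 genes were compared per kilobase of exon, since longer transcripts gather more counts. Etv5 was the most abundant at 122 ± 10 CPM per kb (SD, n = 8 libraries), and its mean CPM lay at the 98.5th percentile of the genes tested. Next came the ligand Fgf4 at 73 ± 4.1 CPM per kb (SD, n = 8). Below it, Spry2 at 38.3 ± 4.4 and Etv4 at 32.1 ± 3.5 CPM per kb (SD, n = 8 each) overlapped between libraries. Spry4 (13.6 ± 1.8), Spred1 (13.4 ± 1.2) and Fgfr1 (12.6 ± 1.5 CPM per kb, SD, n = 8 each) also overlapped, so their order is not fixed by these data. The phosphatase genes stood lower, with Dusp6 at 8.04 ± 1.3 and Dusp4 at 1.5 ± 0.28 CPM per kb (SD, n = 8 each). Fgfr2 was the lowest at 0.517 ± 0.084 CPM per kb (SD, n = 8), below every library of every other member. The levels of the pathway thus spanned the range from an abundant ETS factor to a receptor with 47 to 101 counts per library.

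**Figure D1:**
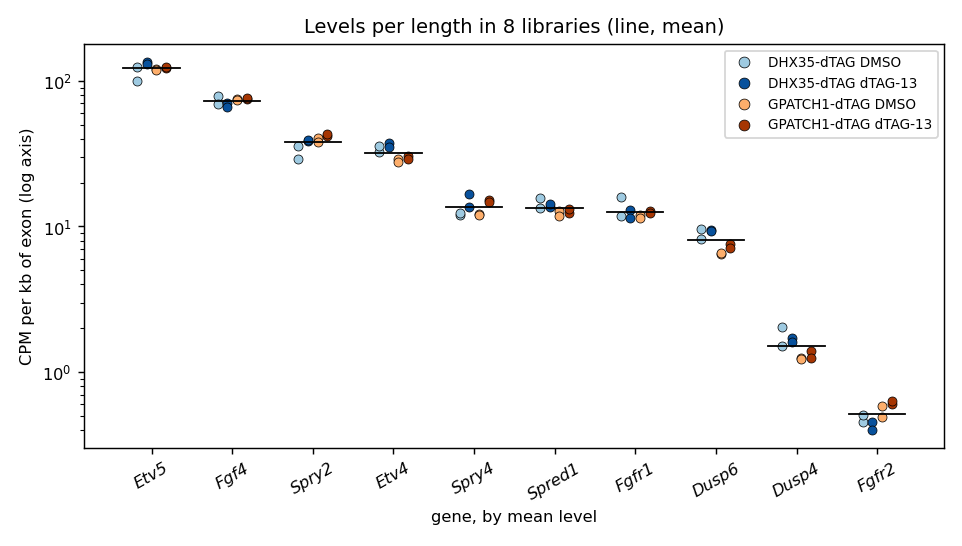
CPM per kb of exon (log axis) of the 10 genes in the 8 libraries, ordered by mean; each point is a library, coloured by group, and each line is the mean. Etv5 lies at 122 CPM per kb and Fgfr2 at 0.517, and the points of Spry4, Spred1 and Fgfr1 overlap.

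The ligand and the receptors were examined first. Fgf4 (ENSMUSG00000050917.5) maps to chromosome 7 of GRCm38 at 144847367 to 144865243, plus strand. It had 250 and 221 CPM in the DHX35-dTAG DMSO libraries (replicates 1 and 2), 226 and 210 in DHX35-dTAG dTAG-13, 241 and 235 in GPATCH1-dTAG DMSO, and 239 and 242 in GPATCH1-dTAG dTAG-13. The ligand thus varied little, and its coefficient of variation of 5.56% over the 8 libraries was below that of each other member. Fgfr1 (ENSMUSG00000031565.18), the receptor that ES cells express most, maps to chromosome 8 at 25513654 to 25575718, plus strand. Its level was 158 and 116 CPM in DHX35-dTAG DMSO, 129 and 113 in DHX35-dTAG dTAG-13, 118 and 112 in GPATCH1-dTAG DMSO, and 126 and 122 in GPATCH1-dTAG dTAG-13. Only replicate 1 of DHX35-dTAG DMSO lay far from the other libraries, and without it the remaining 7 ranged from 112 to 129 CPM. Fgfr2 (ENSMUSG00000030849.18), the receptor typical of primitive endoderm, maps to chromosome 7 at 130162451 to 133123350, minus strand. The RefSeq window searched above, at 130266809 to 130267058, lies inside this span, so the annotated gene reaches upstream of that start. The exon length behind its level per kilobase follows the annotated gene. For this receptor the libraries held 4.66 and 5.27 CPM in DHX35-dTAG DMSO, 4.7 and 4.16 in DHX35-dTAG dTAG-13, 6.08 and 5.04 in GPATCH1-dTAG DMSO, and 6.26 and 6.55 in GPATCH1-dTAG dTAG-13. Exons of Fgfr2 share 314 bases with Ctbp2 on the same strand and those of Fgfr1 share 164 bases with the antisense gene Gm16159, so reads there could have been counted for either gene.

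Sprouty and Spred genes were the most abundant of the 5 feedback inhibitors. Spry2 (ENSMUSG00000022114.5) maps to chromosome 14 at 105891947 to 105896819, minus strand. It had 60.4 and 74.9 CPM in DHX35-dTAG DMSO, 80.8 and 81.5 in DHX35-dTAG dTAG-13, 84.8 and 79.7 in GPATCH1-dTAG DMSO, and 87.7 and 90.2 in GPATCH1-dTAG dTAG-13. Both DMSO libraries of DHX35-dTAG cells were thus below the other 6. Spry4 (ENSMUSG00000024427.7) maps to chromosome 18 at 38586247 to 38601415, minus strand. With DMSO, DHX35-dTAG cells had 56.8 and 58.2 CPM of it and GPATCH1-dTAG cells 58 and 56.4, a range of under 2 CPM over 4 libraries. With dTAG-13, the former had 79.2 and 64.8 CPM and the latter 71.8 and 70. The 4 dTAG-13 libraries were all above the 4 DMSO libraries, which held for no other member. Spred1 (ENSMUSG00000027351.14) maps to chromosome 2 at 117121374 to 117182279, plus strand. Its values were 89.9 and 105 CPM in DHX35-dTAG DMSO, 93.2 and 97.1 in DHX35-dTAG dTAG-13, 86.2 and 80.3 in GPATCH1-dTAG DMSO, and 84.3 and 88.8 in GPATCH1-dTAG dTAG-13. The 4 libraries of GPATCH1-dTAG cells lay below the 4 of DHX35-dTAG cells, by a margin of 88.8 against 89.9 CPM.

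The phosphatase genes were separated by line. Dusp6 (ENSMUSG00000019960.8), whose product is a cytoplasmic phosphatase specific for ERK, maps to chromosome 10 at 99263231 to 99267489, plus strand. It had 30.3 and 25.5 CPM in DHX35-dTAG DMSO, 29.7 and 29.1 in DHX35-dTAG dTAG-13, 20.3 and 20.5 in GPATCH1-dTAG DMSO, and 23.7 and 22.4 in GPATCH1-dTAG dTAG-13. Its highest library in GPATCH1-dTAG cells, at 23.7 CPM, was below its lowest in DHX35-dTAG cells, at 25.5 CPM. Dusp4 (ENSMUSG00000031530.6), which encodes a nuclear phosphatase, maps to chromosome 8 at 34807297 to 34819894, plus strand. It had 5.62 and 4.11 CPM in DHX35-dTAG DMSO, 4.7 and 4.42 in DHX35-dTAG dTAG-13, 3.43 and 3.36 in GPATCH1-dTAG DMSO, and 3.84 and 3.46 in GPATCH1-dTAG dTAG-13. These levels rest on 38 to 76 counts per library, and again no library of one line reached those of the other.

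The ETS factor genes differed from each other in this respect. Etv4 (ENSMUSG00000017724.14) maps to chromosome 11 at 101769742 to 101785371, minus strand. It had 101 and 110 CPM in DHX35-dTAG DMSO, 115 and 108 in DHX35-dTAG dTAG-13, 90.7 and 85.7 in GPATCH1-dTAG DMSO, and 93.9 and 90.8 in GPATCH1-dTAG dTAG-13, with no overlap between the lines. Etv5 (ENSMUSG00000013089.15) maps to chromosome 16 at 22381309 to 22439719, minus strand. Its level was 408 and 513 CPM in DHX35-dTAG DMSO, 548 and 534 in DHX35-dTAG dTAG-13, 498 and 487 in GPATCH1-dTAG DMSO, and 505 and 509 in GPATCH1-dTAG dTAG-13. Apart from 408 CPM in replicate 1 of DHX35-dTAG DMSO, the libraries of Etv5 lay between 487 and 548 CPM.

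**Figure D2:**
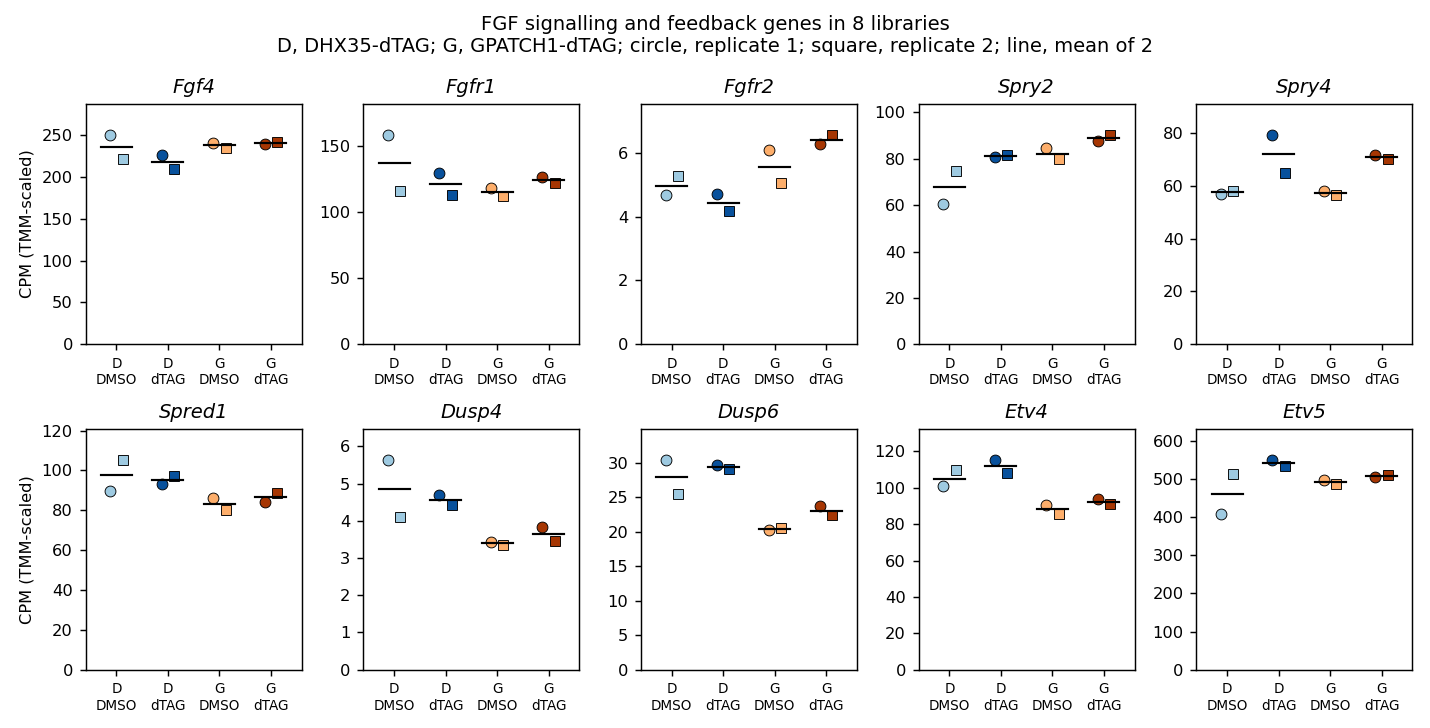
CPM (TMM-scaled, axes from 0) of each gene in the 8 libraries, by group; circles are replicate 1, squares replicate 2 and lines the mean of 2. Spry4 is at 64.8 to 79.2 CPM in dTAG-13 and at 56.4 to 58.2 CPM in DMSO, while Spred1, Dusp4, Dusp6 and Etv4 are lower in all 4 libraries of GPATCH1-dTAG cells than in all 4 of DHX35-dTAG cells.

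The lines were compared over both treatments. The rule for the genes names the treatment contrast and not this one, but they were chosen with earlier results of these data known, so the tests between the lines are not shown to be independent of that choice. Of the 10 genes, 4 had lower values in every library of GPATCH1-dTAG cells than in any of DHX35-dTAG cells (Spred1, Dusp4, Dusp6 and Etv4), where 6.00% of the 16371 genes were separated in this direction. None was separated in the other direction, as 5.63% of all genes were. Dusp6 had a mean of 28.6 ± 2.1 CPM in DHX35-dTAG cells against 21.7 ± 1.6 in GPATCH1-dTAG cells (SD, n = 4 each). The log2 difference was -0.40 (standard error 0.081, 95% interval -0.58 to -0.22), a ratio of 0.757 between the lines. With an adjusted p of 0.075 (edgeR's quasi-likelihood test, Benjamini-Hochberg over all genes), this did not pass the threshold of 0.05. Etv4 fell short of it too, with 109 ± 6.1 CPM in DHX35-dTAG cells against 90.2 ± 3.4 in GPATCH1-dTAG cells (SD, n = 4 each), with log2 -0.27 between the lines (standard error 0.061) and an adjusted p of 0.11 (edgeR). Dusp4 had 4.71 ± 0.65 CPM in DHX35-dTAG cells against 3.52 ± 0.22 in GPATCH1-dTAG cells (SD, n = 4 each), which differed by -0.415 on the log2 scale (standard error 0.15, adjusted p = 0.26, edgeR). The interval for Dusp4 ran from -0.75 to -0.08, which at 38 to 76 counts per library leaves its size poorly known. For Spred1, with 96.4 ± 6.7 CPM against 84.9 ± 3.6 (SD, n = 4 each), the log2 difference was -0.18 (standard error 0.07, adjusted p = 0.28, edgeR).

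The remaining 6 genes overlapped between the lines. Spry2 and Fgfr2 had the higher means in GPATCH1-dTAG cells, by 0.21 (standard error 0.077, adjusted p = 0.27) and 0.35 (standard error 0.13, adjusted p = 0.26) on the log2 scale (edgeR). Spry2 was at 74.4 ± 9.8 CPM in DHX35-dTAG cells against 85.6 ± 4.5 in GPATCH1-dTAG cells (SD, n = 4 each), and Fgfr2 at 4.7 ± 0.46 and 5.98 ± 0.66 CPM (SD, n = 4 each). The summed primitive endoderm markers were likewise higher in all 4 GPATCH1-dTAG libraries, at 8.41 to 9.87 CPM against 6.43 to 8.29, and their part in the line differences was not tested. For Fgf4 the log2 difference was 0.08 with a 95% interval from -0.06 to 0.22, and for Fgfr1 it was -0.11 with an interval from -0.33 to 0.11. Spry4 gave -0.02 (95% interval -0.18 to 0.15) and Etv5 0.00 (95% interval -0.17 to 0.17). The intervals of these 4 genes hold no difference above 0.33 in size.

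In total, 0 of the 10 genes passed the adjusted threshold for the line difference by edgeR and 0 by DESeq2, against 109 of all genes by edgeR (0.666%, 45 higher and 64 lower in GPATCH1-dTAG cells). At an unadjusted p under 0.05 there were 6 (Fgfr2, Spry2, Spred1, Dusp4, Dusp6 and Etv4), against 15.1% of all genes. The median log2 difference was -0.06 over the 10 genes and -0.01 over all genes tested. Without replicate 1 of DHX35-dTAG DMSO, 902 genes were called, among them Dusp6 (log2 difference -0.34, adjusted p = 0.0067), Etv4 (-0.295, adjusted p = 0.0014) and Spred1 (-0.24, adjusted p = 0.0087, all edgeR). In this setting Dusp4 had a difference of -0.295 with an adjusted p of 0.29 (edgeR), and the other differences were 0.13 for Spry2, 0.31 for Fgfr2, 0.12 for Fgf4, 0.01 for Fgfr1, -0.08 for Etv5 and -0.02 for Spry4. Without replicate 2 of the same group, which leaves the library that stands apart as the lone one of its group, 5149 genes were called and 6 of the 10 were among them, namely Fgfr1, Fgfr2, Spry2, Dusp4, Dusp6 and Etv4. Spred1 was not, at -0.12 with an adjusted p of 0.096 (edgeR), and Fgf4 was at 0.04. Dusp6 also passed when no filter on low counts was used (adjusted p = 0.015, edgeR), where 890 genes were called. Fewer genes were called than in the fit of all libraries when any library outside DHX35-dTAG DMSO was left out. The 4 separated genes kept their sign within each treatment, with differences of -0.45 in DMSO and -0.35 in dTAG-13 for Dusp6, and of -0.26 and -0.28 for Etv4. Their adjusted p in DMSO and dTAG-13 was 0.31 and 0.44 for Dusp6, and 0.35 and 0.42 for Etv4 (edgeR). Line, clone, tag and culture batch cannot be told apart in this design.

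**Figure D3:**
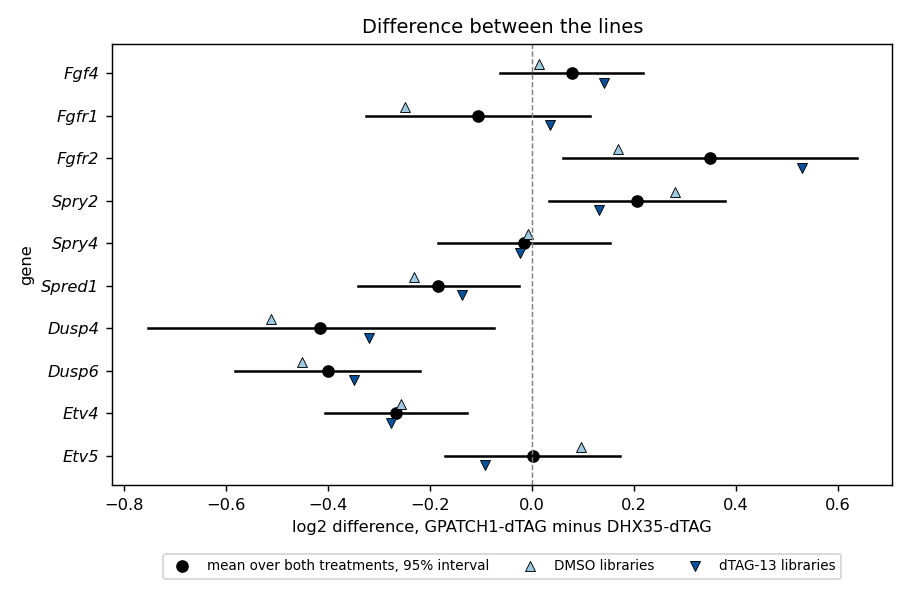
Log2 difference of each gene between the lines (GPATCH1-dTAG minus DHX35-dTAG); black points and bars give the mean over both treatments with its 95% interval, and triangles the DMSO and dTAG-13 libraries alone. The intervals of Spred1, Dusp4, Dusp6 and Etv4 lie below 0 and those of Fgfr2 and Spry2 above 0, while none of the 10 passed the threshold after adjustment over all genes.

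The differences between dTAG-13 and DMSO, on which the genes were selected, are described next. No gene of the whole table passed the adjusted threshold on DHX35 depletion (0%, edgeR), with 882 at an unadjusted p under 0.05 and 1 gene called by DESeq2. This count depended on the setting, since 4949 genes were called without replicate 2 of DHX35-dTAG DMSO, 345 without a filter on low counts and 319 on library totals alone. On DHX35 depletion, Spry4 had a log2 difference of 0.32 (standard error 0.11, 1.25-fold), with 57.5 ± 0.99 CPM in DMSO and 72 ± 10 in dTAG-13 (SD, n = 2 each). Spry2 had 0.26 (standard error 0.11) and Etv5 had 0.23 (standard error 0.11). These 3 genes were higher in both dTAG-13 libraries than in both DMSO libraries, and no member was lower in both. Of all genes, 14.6% were separated in the higher direction and 14.1% in the lower, and nothing is read from the count, since this contrast helped to choose the genes. The other 7 differences lay between -0.18 for Fgfr1 and 0.09 for Etv4. The median of the 10 was 0.02 and that of all genes -0.01.

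Several of these values rested on replicate 1 of DHX35-dTAG DMSO. Without it, the log2 difference of Spry2 went from 0.26 to 0.12, and that of Etv5 from 0.23 to 0.08. The differences of Fgfr1 and Dusp4 turned from -0.18 to 0.06 and from -0.09 to 0.15, and those of Dusp6 and Spred1 went from 0.08 to 0.205 and from -0.04 to -0.15. Those of Fgf4, Fgfr2 and Etv4 went from -0.11 to -0.02, from -0.17 to -0.25 and from 0.09 to 0.03. Without replicate 2 of the group they moved the other way, with Spry2 at 0.43, Etv5 at 0.415, Fgfr1 at -0.38 and Dusp4 at -0.29, and Dusp6 and Spred1 turned to -0.03 and 0.09. Spry4 was hardly moved, at 0.31 without replicate 1 and 0.35 without replicate 2. Its 2 dTAG-13 libraries differed more, since its difference was 0.17 without the first of them and 0.47 without the second. On library totals alone, Spry4 in DHX35-dTAG cells had 60.2 and 63.9 CPM in DMSO and 77.2 and 55.5 in dTAG-13, which overlap. Its log2 difference was then 0.09, or 0.34 above the median of all genes, which moved to -0.25.

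On GPATCH1 depletion, all 10 differences were above 0, from 0.01 for Fgf4 to 0.31 for Spry4, with a median of 0.10 against 0.00 over all genes. In this line the summed formative markers were at 228 to 229 CPM in DMSO and 243 to 257 in dTAG-13. Those of ES cells were at 4680 to 4700 and 4740 to 4770 CPM, while the primitive endoderm and fibroblast sums overlapped. The part of cell state in these differences was not tested. Spry4 had 57.2 ± 1.2 CPM in DMSO and 70.9 ± 1.2 in dTAG-13 (SD, n = 2 each), a log2 difference of 0.31 (standard error 0.11, 1.24-fold). It kept this size whichever library was left out, between 0.28 and 0.33. Next came Fgfr2 at 0.19 (standard error 0.17) and Dusp6 at 0.18 (standard error 0.12). The differences of Spry2, Dusp4 and Fgfr1 were 0.11, 0.11 and 0.10, and those of Etv4, Spred1 and Etv5 were 0.07, 0.06 and 0.04. With each library left out in turn, Dusp4 ranged from 0.03 to 0.18, Fgfr1 from 0.06 to 0.14, Spry2 from 0.06 to 0.16, Etv4 from 0.02 to 0.11 and Etv5 from 0.02 to 0.06, and the lowest value came without replicate 1 of GPATCH1-dTAG dTAG-13 for Dusp4 and without replicate 2 of GPATCH1-dTAG DMSO for the other 4. In 8 of the 10 genes, all but Fgf4 and Spred1, both dTAG-13 libraries were above both DMSO libraries. With 2 libraries against 2 such a separation is common, and 21.5% of all genes were separated upwards and 20.3% downwards, so nothing is read from the count here either. No gene of the whole table passed the adjusted threshold (0%, edgeR, and 0 by DESeq2), and 486 did at an unadjusted p under 0.05. In a fit of only the 4 libraries of this line 127 genes passed, and 51 did with either DMSO library of DHX35-dTAG cells left out. Replicate 2 of GPATCH1-dTAG DMSO was the library in which Gm23935 and CT010467.1 took 20.9% of the counts, and it had the lower value of its group for 9 of the 10 genes, all but Dusp6. The part of this library in the result was not tested, and without the other DMSO library of the line the median of the 10 differences was 0.13, against 0.06 without this library. Without it, Fgf4 turned to -0.01, Spred1 went to 0.00 and Fgfr2 to 0.07, while Fgfr2 was at 0.345 without the other.

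Over both lines together, Spry4 had a log2 difference of 0.32 (standard error 0.075, 1.25-fold). It alone among the 10 was separated by treatment over the 8 libraries, an upward or downward separation found in 1.03% and 1.22% of all genes, and nothing is read from it. Spry2 came next at 0.19 (standard error 0.077) and Etv5 at 0.14 (standard error 0.076). Dusp6, a feedback gene as well, had 0.13 (standard error 0.081). The other 6 genes had differences between -0.05 for Fgf4 and 0.08 for Etv4, and this range depended on 1 library. GPATCH1 depletion minus DHX35 depletion was -0.02 for Spry4 with a standard error of 0.15, which leaves room for a difference of either sign, and 0.28 for Fgfr1 and 0.36 for Fgfr2 with standard errors of 0.19 and 0.26. Without replicate 1 of DHX35-dTAG DMSO, the differences over both lines were 0.31 for Spry4, 0.19 for Dusp6, 0.11 for Spry2 and 0.06 for Etv5. Fgfr1 turned from -0.04 to 0.08, Spred1 from 0.01 to -0.05 and Fgfr2 from 0.01 to -0.03, Dusp4 went from 0.01 to 0.13, Fgf4 was at 0.00 and Etv4 at 0.05. The differences in response without that library were 0.00 for Spry4, 0.04 for Fgfr1 and 0.43 for Fgfr2. No gene of the table passed the threshold over both lines (0%, 552 at an unadjusted p under 0.05 and 3 called by DESeq2) or for the difference in response (0%, 640 at an unadjusted p under 0.05 and 9 called by DESeq2). Without replicate 2 of DHX35-dTAG DMSO these counts were 2796 and 3592.

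**Figure D4:**
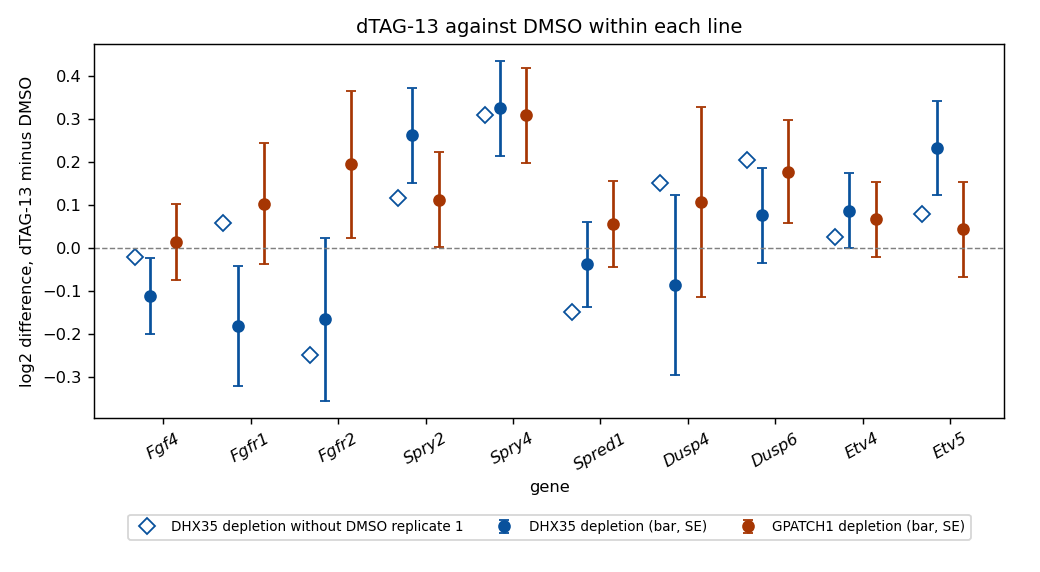
Log2 difference between dTAG-13 and DMSO in each line for the 10 genes, with bars of 1 standard error; open diamonds give DHX35 depletion without replicate 1 of DHX35-dTAG DMSO. Spry4 lies at 0.32 and 0.31 in the lines and at 0.31 without that library, while Spry2 and Etv5 move from 0.26 to 0.12 and from 0.23 to 0.08.

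The other genes of the pathway were taken from a list of 67, of which 63 passed the filter on low counts. Fgf1, Fgf5 and Fgf8 had between 2 and 10 counts in a library, and Spry3 was not analysed here. None of the 63 passed the adjusted threshold in any of the comparisons (edgeR, and 0 by DESeq2). For the line difference, 6 (9.52%) had an unadjusted p under 0.05, below the 15.1% of all genes, with 1 higher (Rps6ka1, an ERK-activated kinase) and 5 lower in GPATCH1-dTAG cells (Dusp5, Spred3, Fgfrl1, Fgf10 and the ETS repressor gene Erf). Dusp5, a further ERK phosphatase gene, had 9.16, 7.97, 8.55 and 8.14 CPM in the DHX35-dTAG libraries and 6.79, 6.19, 6.38 and 6.19 in the GPATCH1-dTAG libraries. Its log2 difference of -0.40 (standard error 0.11, adjusted p = 0.16, edgeR) was of the size seen for Dusp6. The other ERK phosphatase genes of the list overlapped between the lines, with log2 differences of -0.02 for Dusp7 (standard error 0.10) and 0.01 for Dusp9 (standard error 0.10). The difference of Dusp5 was -0.35 without replicate 1 of DHX35-dTAG DMSO and -0.44 without replicate 2 of that group. The ligand gene Fgf10, with 12 to 37 counts in a library, had -0.58 (standard error 0.21, adjusted p = 0.27, edgeR), and -0.63 without replicate 1 of DHX35-dTAG DMSO. Ier3, an immediate early gene, had 3.16 to 3.73 CPM in DHX35-dTAG cells against 2.46 to 3.16 in GPATCH1-dTAG cells. The median of the 63 genes for the line difference was -0.02.

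On DHX35 depletion, Fgf17, a ligand related to FGF8, had 12.7 and 15.6 CPM in DMSO and 18.9 and 19.5 in dTAG-13, 0.44 on the log2 scale (standard error 0.13, adjusted p = 0.71, edgeR), and 0.30 without replicate 1 of DHX35-dTAG DMSO. Without replicate 2 of that group it was 0.60 and passed the threshold (adjusted p = 0.0021, edgeR), as 1 of 18 pathway genes among 4949 genes called. In GPATCH1-dTAG cells it had 15.1 and 16.3 CPM in DMSO and 14.8 and 15.2 in dTAG-13. The values of ERK-induced genes lay in both directions, since Egr1 had 0.665 and 0.836 CPM in DMSO against 1.11 and 1.5 in dTAG-13 on 9 to 17 counts, while Phlda1 had 7.61 and 7.13 CPM against 5.9 and 5.31. Myc had 0.26 on the same scale (standard error 0.092, adjusted p = 0.71, edgeR), or 0.34 without replicate 1 of DHX35-dTAG DMSO, and with Fgf17 it made up the 2 genes of the 63 (3.17%) at an unadjusted p under 0.05, where 5.39% of all genes were. On GPATCH1 depletion there were 0 such genes of the 63, against 2.97% of all genes. Among those with a mean of at least 1 CPM, the genes there with the widest separated differences were Fgfr4 (2.65 and 2.3 CPM in DMSO, 1.43 and 1.94 in dTAG-13), Fgf3 (1.62 and 1.86 against 2.6 and 1.87) and the heparan sulphate enzyme gene Ndst2 (11.3 and 12.7 against 10.8 and 9.15), the first 2 on 21 to 42 counts in these libraries. The median of the 63 genes was 0.06 on DHX35 depletion and -0.02 on GPATCH1 depletion.

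Per kilobase of exon, Fgf4, Fgfr1 and Etv5 had the highest mean levels of the ligand, receptor and transcription factor genes listed, members and other pathway genes together. Fgf4 at 73 CPM per kb exceeded Fgf17 at 9.47, the next ligand gene, and Fgfr1 at 12.6 exceeded Fgfrl1 at 2.56, Fgfr4 at 0.666 and Fgfr3 at 0.124. Among feedback genes outside the 10, Dusp9 (36.1 CPM per kb), another phosphatase of ERK, and Spred2 (23) were above Spred1 and Dusp6. Erf (60.8) and Cic (23.6), repressors that ERK inactivates, stood between Etv5 and Fgf4 at the top and Etv1 (3.54 CPM per kb), the third gene of the PEA3 family with Etv4 and Etv5.

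Over the 8 libraries, the genes that varied together were described by the Pearson r of log2 CPM. These points share their depth and fall into 2 lines and 2 treatments, so r holds group differences and is given without a test. Dusp4 and Dusp6 had r = 0.939, Dusp6 and Etv4 0.844, and Spred1 and Etv4 0.828, and these are the genes whose libraries were separated by line. Spry2 and Etv5 had r = 0.772, and both were lowest in replicate 1 of DHX35-dTAG DMSO, whereas Fgfr1 and Etv5 had r = -0.737. Among 14606 genes of at least 1 CPM on average, those most like Spry4 were Slc25a39 (r = 0.973), a mitochondrial carrier gene, and Dhcr7 (r = 0.942), which encodes an enzyme of cholesterol synthesis. Most like Dusp6 were Hdac6 (r = 0.982) and Bmp4 (r = 0.977), and most like Etv4 were Epas1 (r = 0.993) and Zfp46 (r = 0.984). For Etv5 the closest were Pcbp1 (r = 0.988) and Cnst (r = 0.986), for Spry2 they were Plagl2 (r = 0.988) and Slc38a1 (r = 0.986), and for Fgf4 they were Khk (r = 0.987) and Sprtn (r = 0.964). The closest genes to Fgfr1 were Acaa1a (r = 0.998) and Stk11 (r = 0.994), to Fgfr2 Mapk8ip3 (r = 0.95) and P4htm (r = 0.938), to Spred1 Ptger4 (r = 0.965) and Dennd5b (r = 0.957), and to Dusp4 BC017158 (r = 0.991) and Madd (r = 0.99). With so many candidates and 8 libraries, high values of r arise readily, and nothing is said of shared function.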

How the data were processed

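The authors extracted RNA, mixed in human DLD-1 RNA as a spike-in, removed ribosomal RNA and made stranded libraries. Per the submitters' processing notes, reads were handled with FastQC 0.11.9, Trim Galore 0.6.6, STAR 2.7.5c and DESeq2 1.26.0, with the builds mm10 and hg19. The authors deposited raw counts per gene symbol, 1 table per library. The counting program, annotation and strand setting are not given in the sources used here, so overlapping and antisense genes are uncertain. Spike-in reads were not used here.

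Counts were fitted with edgeR 4.0.16 in R 4.3.3 (TMM, filterByExpr, glmQLFit and glmQLFTest, 1 term per group, Benjamini-Hochberg adjustment over 16371 genes, threshold 0.05). All 8 libraries shared 1 spread (common dispersion 0.0125). Standard errors were taken as the log2 difference over the root of F. Exon lengths, gene identifiers and coordinates came from GENCODE M21 (GRCm38) by symbol, and promoters from RefSeq. Total counts differed little, and shares of counts have 95% Wilson intervals that cover counting error only.

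The members, the pathway list and the markers were chosen with earlier results of these data known. All members were named, as were, of the other pathway genes, those called and the 3 largest differences per line or depletion comparison with a mean of at least 1 CPM and no overlap; other genes at an unadjusted p under 0.05 and genes set beside the members for their level were named after their values were seen. For each member, the 2 genes with the highest r were named.

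The 2 libraries of a group were not duplicates (chi-square per gene 5.49 to 139). The scripts were tested on simulated data. Alternatives were DESeq2 1.42.0, its size factors, the expression filter left out or set to 10 counts per library, the replicate number as a block, other sets of libraries, and library sizes without Gm23935 and CT010467.1. Library totals without TMM were added after seeing the data. The deviations of same-numbered libraries correlated at 0.037 to 0.23, so the numbers were not taken as pairs.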

Additional observations from a re-analysis of the deposited data

How the results depend on the processing

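Under DESeq2, its size factors in edgeR, at least 10 counts in every library, the replicate block and library sizes without Gm23935 and CT010467.1, 0 of the 10 genes passed the threshold for the line difference, and each value kept its sign except Etv5, at -0.00178 with at least 10 counts. DESeq2 called 1 gene of the whole table on DHX35 depletion, 3 over both lines and 9 for the difference in response. With no filter the counts of genes were 890 for the line difference, 345 on DHX35 depletion, 21 on GPATCH1 depletion, 85 over both lines and 140 for the difference in response, 1 member (Dusp6, adjusted p = 0.015, edgeR) passed the line difference, and Spry4 was at 0.00291 there. The line difference gave 15 genes in DMSO alone and 15 in dTAG-13 alone, where Fgfr1 (0.0361) and Etv5 (-0.0928) changed sign. A fit of only the 4 libraries of a line gave 1 gene on DHX35 depletion and 127 on GPATCH1 depletion. The replicate block gave 132 genes for the line difference, with Dusp6 at an adjusted p of 0.06 and Etv4 at 0.092 (edgeR), 2 genes for the difference in response, and changed no call among the 10. Library totals without TMM, added after seeing the data, gave 254 genes for the line difference, 319 on DHX35 depletion, 10 on GPATCH1 depletion, 23 over both lines and 179 for the difference in response, and the medians of the 10 genes became -0.221 and 0.266 on DHX35 and GPATCH1 depletion, following the shift of all genes. With each library left out in turn, the line difference gave 16 to 5149 genes, 0 to 6 of the 10 members and 0 to 16 other pathway genes. DHX35 depletion gave 0 to 4949 genes with 0 to 18 pathway genes, GPATCH1 depletion 0 to 51, both lines together 0 to 2796 with 0 to 15 pathway genes, and the difference in response 0 to 3592 with 0 to 15 pathway genes. The count of 51 came without replicate 1 and likewise without replicate 2 of DHX35-dTAG DMSO. The highest of the other counts came without replicate 2, which leaves replicate 1, the library that stands apart, as the lone one of its group, assumed to vary like the other groups. The 6 members called there for the line difference were Fgfr1, Fgfr2, Spry2, Dusp4, Dusp6 and Etv4. Line differences that changed sign ranged from -0.203 to 0.0144 for Fgfr1, from -0.0827 to 0.0645 for Spry4 and from -0.0754 to 0.0933 for Etv5. The cause of these changes was not tested. With 2 libraries a group and 47 to 101 and 38 to 76 counts a library, differences in Fgfr2 and Dusp4 are the least precise of the 10.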
